A study of Homo sapiens with 12 samples.

Results

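The 154 exons described here are internal exons that were included more often in the second of the study's 2 numbered RNA-seq sets. They were chosen from a table of exon events, each the count of reads that include an exon (I) and of reads that skip it (S). An event needed an I and S sum of at least 20 in each of 6 libraries. Its mean inclusion, as a percentage corrected for the length over which reads can fall, had to be at least 20 percentage points higher in set 2 than in set 1, with all 3 set 2 values above all 3 set 1 values. Each exon was counted once, at the event with the most reads among those that met the rule. The 154 exons, met at 170 events, were 0.242% of 63506 exons with enough reads, and the mirror rule found 249 exons (0.392%) lower in set 2. With no minimum size, the sets did not overlap in 4.48% of these exons with set 2 higher and in 5.5% with set 2 lower. Since set 2 minus set 1 chose these exons, their set difference is a description and carries no test.

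The study compared GS689.Li (GS689 below) with PC3E, both wild type, both derived from the human PC3 prostate cancer line and both grown in the same G418-containing medium. GS689 has mesenchymal and PC3E epithelial character. Each line had 3 RNA-seq libraries and 3 libraries of RASL-seq, a targeted assay in which probe pairs are ligated across splice junctions and counted. The RNA-seq header names no line for set 1 or set 2, so no RNA-seq value below is given to a line, and every comparison of the lines comes from RASL-seq. The labels number replicates without stating separate cultures, so a p-value reflects only how far these libraries scatter, which can be a technical matter.

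RASL-seq totals were 954120, 848241 and 615758 counts in GS689 replicates 1 to 3, against 848150, 754338 and 911476 in PC3E. Over all events of each gene, the mesenchymal marker VIM summed to 10305 counts in GS689 against 467 in PC3E, ZEB1 to 44 against 1, and the epithelial marker LSR to 2 against 233. No RASL-seq event was matched to CDH1, EPCAM, ESRP1, ESRP2 or KLK3, so these genes could not be compared here. PC3E replicate 2 differed most from its fellow libraries: a chi-square of inclusion shares, divided by its degrees of freedom, was 4.79 and 3.52 against replicates 1 and 3, and 1.90 between those. In RNA-seq, library 2 of set 1 stood apart in the same measure (3.57 and 3.00, against 1.98), and it held the lowest value of its set in 84 of the 154 exons (54.5%), against 36.7% of 5206 other exons at a mean inclusion of 10 to 90%. Left out, it gave 188 exons, of which 130 were among the 154. Without library 1 or 3 of set 1 there were 228 and 184 exons, of which 144 and 140 were among the 154. With a library left out, the conditions on depth and overlap are easier to meet.

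A cassette exon is kept in, or removed from, the mature RNA when the spliceosome joins its splice sites or bypasses them. Regulators such as ESRP1 and ESRP2 (epithelial splicing factors that bind GU-rich motifs), RBFOX, QKI, PTBP1 and MBNL proteins bind in or near such exons and shift the balance. Epithelial and mesenchymal cells are known to differ in a set of these exons, many in genes of cell junctions, the cytoskeleton and vesicle traffic. Coding exons whose length is a multiple of 3 add or remove a stretch of protein without changing the reading frame, and very short ones are called microexons.

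Several of the gained exons are short enough to read at a glance, and they are shown because their length and frame are a feature of the set. The following 10 coding exons of 9 to 27 nt are written 5′ to 3′ on the coding strand, with hg19 positions and sequence from GENCODE 29 transcripts. They lie in a dynamin (DNM1, with 2 such exons), a YAP-binding transcription factor (TEAD1), a retromer subunit (VPS29), a receptor phosphatase (PTPRS), a clathrin adaptor subunit (AP1B1), an annexin (ANXA6), glycerol kinase (GK), filamin A (FLNA) and a bromodomain protein (BAZ2B).
DNM1 chr9:131010203-131010214, plus strand: gacaaagagaaa
DNM1 chr9:131002264-131002275, plus strand: gatgagattctg
TEAD1 chr11:12900436-12900447, plus strand: gtaacaagcatg
VPS29 chr12:110937340-110937351, minus strand: gctgggcacaga
PTPRS chr19:5218798-5218809, minus strand: caaacccgacag
AP1B1 chr22:29725701-29725709, minus strand: gacttagag
ANXA6 chr5:150490188-150490205, minus strand: gtggctgctgagatcttg
GK chrX:30715849-30715866, plus strand: aaaatctctcatagcgtg
FLNA chrX:153585619-153585642, minus strand: tgtcaatcggaggtcacgggctag
BAZ2B chr2:160253585-160253611, minus strand: gagttggagaggcatagactagatatg

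The coding exons with the largest and the fifth largest set difference, in ARHGEF11 and OSBPL3, both hold GGTGG, the core of the motif that ESRP proteins bind, in capitals below. The motif was searched on the coding strand only. It occurred in 30 of 152 gained exons with a sequence (19.7%), in 15.6% of the other exons at 10 to 90% and in 18.1% of all exons with enough reads, so its share among gained exons was close to that of all exons. TGCATG, the RBFOX motif, occurred in 5 of 152 (3.29%), against 3.36% of all.
ARHGEF11 chr1:156908210-156908305, minus strand: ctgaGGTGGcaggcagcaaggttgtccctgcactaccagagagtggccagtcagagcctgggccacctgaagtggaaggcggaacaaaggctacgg
OSBPL3 chr7:24902819-24902911, minus strand: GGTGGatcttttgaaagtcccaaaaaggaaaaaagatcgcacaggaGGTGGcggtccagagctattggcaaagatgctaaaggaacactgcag

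The set differences ran from 20.01 to 89.0 points with a median of 27.6, and 56, 34 and 17 exons reached 30, 40 and 50 points. Median inclusion over the 154 exons was 75.1%, 77.2% and 77.6% in set 2 libraries 1 to 3, against 44.8%, 40.1% and 44.7% in set 1. In 74 exons the mean lay above 50% in set 2 and below it in set 1; 60 exons were above 50% in both sets and 20 below it in both. Only 15 exons were near-silent in set 1, at a mean under 10%, and 23 were near-constitutive in set 2, at a mean above 95%. The lowest set 2 value cleared the highest set 1 value by a median of 16.7 points, by at least 20 points in 61 exons and by under 5 points in 13. Between libraries of one set, the gained exons spanned a median of 8.06 points in set 2 and 11.3 in set 1, against 7.30 and 9.42 for the other exons at 10 to 90%.

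Depth varied widely. The lowest library held 100 reads or more in 70 exons, under 50 in 52, and 1000 or more in 9. The widest 95% Wilson interval among an exon's 6 libraries, carried through the length correction, had a median of 19.8 points and ran from 3.02 to 42.9. In 79 exons all 3 set 2 intervals lay above all 3 set 1 intervals. The rule already required that order of the values themselves, so this count is no evidence of a gain. It was not made for other exons. These intervals cover counting error only.

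Scaled to the table total of each library, inclusion reads were higher and skipping reads lower in set 2 in 101 exons. In 22 exons both were higher and in 31 both were lower. Differences of any size were counted, and none was tested, so these counts do not show that the amount of reads changed.

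**Figure D1:**
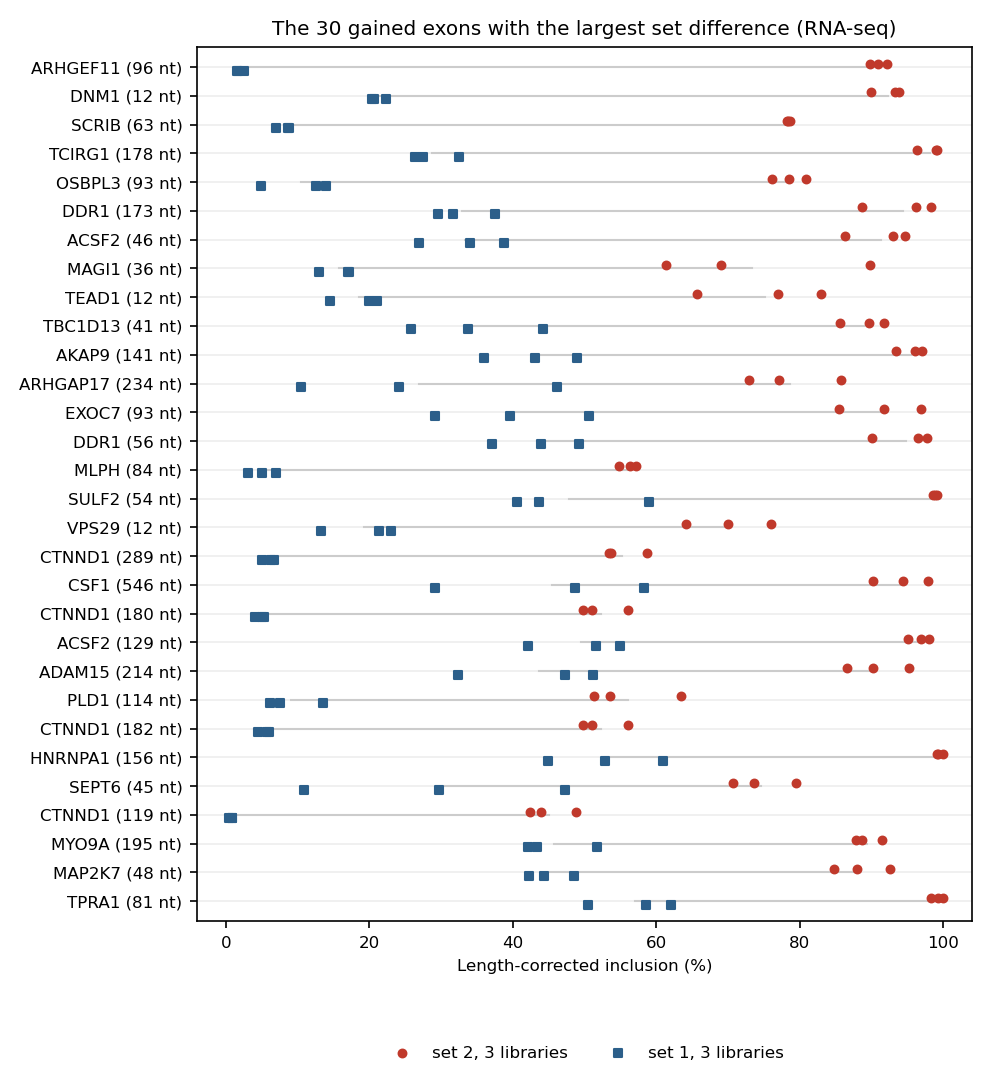
Length-corrected inclusion in percent (horizontal axis) of the 30 gained exons with the largest set difference, 1 row per exon with gene and exon length. Red circles are the 3 libraries of set 2, blue squares the 3 libraries of set 1, and grey lines join the set means; ARHGEF11 at the top spans 89.0 points, while set 1 libraries of ARHGAP17 spread between 10.4% and 46.2%.

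The exon farthest apart lay in ARHGEF11, an exchange factor that activates a small GTPase. Its 96 nt coding exon was included at 90.9%, 92.2% and 89.8% in set 2 libraries 1 to 3, against 2.52%, 1.59% and 1.67% in set 1. No single-library interval was wider than 7.28 points, so the exon was close to always kept in set 2 and close to always skipped in set 1. Other regulators of small GTPases had coding exons with less even libraries. ARHGAP17, a GTPase-activating protein, had 85.8%, 77.1% and 73.0% in set 2 at its 234 nt exon (chr16:24950685-24950918), against 46.2%, 10.4% and 24.1% in set 1. TBC1D13, a GTPase-activating protein of Rab35, had 91.8%, 85.6% and 89.7% in set 2 at its 41 nt exon (chr9:131553014-131553054), against 44.3%, 25.9% and 33.7% in set 1. In both genes library 2 was the lowest of set 1. Of 57 small GTPase regulators with enough reads, 6 held a gained exon (10.5%), against 129 of 10306 genes (1.25%) in all. This list and the other gene lists below were chosen with earlier results of these data known, so their shares are no independent evidence.

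Scaffolds of cell polarity and adhesion followed. SCRIB, a basolateral polarity scaffold, was among the deepest, with at least 1550 reads in each library. Its 63 nt coding exon was included at 78.2%, 78.4% and 78.7% in set 2, against 8.84%, 6.99% and 8.71% in set 1, and both sets were nearly free of scatter. MAGI1, a scaffold at tight junctions, had 61.3%, 69.0% and 89.7% in set 2 at its 36 nt exon (chr3:65433697-65433732), against 12.9%, 17.2% and 17.1% in set 1. It had 36 reads in its lowest library and an interval of up to 20.2 points, and its set 2 libraries were far apart. PTK2, the focal adhesion kinase, carried one of the shortest exons, of 9 nt, at 32.8%, 34.0% and 29.1% in set 2, against 6.05%, 6.87% and 5.23% in set 1, on at least 1446 reads. Of 42 junction and adhesion genes, 7 held a gained exon (16.7%) and 6 held an exon lower in set 2 (14.3%), against 1.25% and 1.88% of all genes.

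CTNND1, p120 catenin, which binds the cadherin tail, is among the best known genes of epithelial and mesenchymal splicing, and it had 4 gained exons. Its 289 nt exon was included at 58.7%, 53.5% and 53.6% in set 2, against 6.25%, 6.78% and 5.02% in set 1. The 180 and 182 nt exons share most of that sequence and much of its reads, and they had set differences of 47.5 and 46.9 points. They are versions of 1 exon rather than separate gains. The 119 nt exon of its 5′ UTR was at 48.8%, 42.3% and 44.0% in set 2, against 0.409%, 0.901% and 0.862% in set 1, the lowest set 1 mean of all 154. In all, 21 of the 154 exons fell into 10 groups of overlapping versions, so the 154 form 143 separate stretches.

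Vesicle and organelle genes gave other large differences. DNM1, a dynamin that pinches vesicles off membranes, had 93.8%, 93.2% and 89.98% in set 2 at the 12 nt exon starting at position 131010203, against 20.6%, 22.3% and 20.4% in set 1. Its other 12 nt exon, upstream, was at 54.8%, 59.3% and 58.4% in set 2, against 12.7%, 45.0% and 27.4% in set 1. The first exon thus had tight libraries in both sets, and the second had tight libraries in set 2 only. OSBPL3, a lipid-binding protein of the oxysterol-binding family, had 80.9%, 78.6% and 76.1% in set 2, against 14.01%, 4.94% and 12.6% in set 1. TCIRG1, a subunit of the vacuolar proton pump, had 99.0%, 96.3% and 99.2% in set 2 at its 178 nt coding exon (chr11:67817954-67818131), against 32.5%, 27.5% and 26.4% in set 1. The TCIRG1 exon is not a multiple of 3, and its set 2 libraries were close to full inclusion. AP1B1, a subunit of the AP-1 clathrin adaptor, used its 9 nt exon at 26.4%, 28.7% and 26.1% in set 2, against 1.74%, 0.352% and 1.59% in set 1, so it stayed a minority form in both. EXOC7, a subunit of the exocyst, which tethers vesicles to the plasma membrane, had 96.9%, 91.7% and 85.4% in set 2 at its 93 nt exon, against 39.6%, 29.1% and 50.6% in set 1. That event had 1238 reads. At the most counted event of the EXOC7 exon, with 6022 reads, it was a minority form in both sets. Inclusion there was 15.3%, 15.1% and 17.0% in set 2, against 8.92%, 3.13% and 6.74% in set 1.

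VPS29, a retromer subunit that helps return cargo from endosomes, used its 12 nt exon at 76.0%, 64.2% and 70.0% in set 2, against 21.3%, 13.3% and 23.1% in set 1. It was chosen for naming after its values were seen, as its sequence is printed. A 90 nt version that begins at the same splice site and runs further into the intron had a set difference of 32.2 points, with part of its reads shared. Of 57 vesicle traffic genes, 5 held a gained exon (8.77%) and 10 an exon lower in set 2 (17.5%), against 1.25% and 1.88% of all genes.

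Signalling and gene regulation were represented as well. DDR1, a collagen receptor kinase, had 98.3%, 88.7% and 96.2% in set 2 at the 173 nt exon of its 5′ UTR (chr6:30852315-30852487), against 37.6%, 29.6% and 31.7% in set 1. TEAD1, the DNA-binding partner of YAP, had 65.6%, 83.0% and 77.0% in set 2 at its 12 nt exon, against 14.5%, 21.1% and 19.96% in set 1, with 35 reads in the lowest library. AKAP9, a scaffold of protein kinase A at the centrosome and Golgi, had 96.1%, 97.1% and 93.5% in set 2 at its 141 nt exon (chr7:91671360-91671500), against 36.0%, 49.0% and 43.1% in set 1. ACSF2, an acyl-CoA synthetase family member, had 92.9%, 86.3% and 94.6% in set 2 at a 46 nt exon (chr17:48538603-48538648), against 38.8%, 26.99% and 34.0% in set 1. A 129 nt version that starts at the same position gave 47.1 points. The smallest gap between the sets among the first exons given for these 4 genes was 44.5 points, in AKAP9.

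Cytoskeletal genes had 5 of 72 actin genes (6.94%) and 6 of 48 microtubule and motor genes (12.5%) with a gained exon, against 1.25% of all genes. An exon lower in set 2 was held by 12 of the actin genes (16.7%) and 5 of the microtubule and motor genes (10.4%), against 194 of all 10306 genes (1.88%). FLNA, the actin crosslinker filamin A, was the deepest of the 154 by its lowest library, with 4033 reads. Its 24 nt exon was at 82.4%, 81.5% and 80.3% in set 2, against 53.4%, 54.1% and 54.7% in set 1, with no interval over 3.12 points. The FLNA sets were each within 3 points and far apart from each other. EPB41, protein 4.1, which ties the spectrin and actin network to the membrane, had 44.6%, 51.6% and 43.3% in set 2 at its 42 nt exon, against 13.8%, 3.91% and 13.1% in set 1. In EPB41 library 2 was again the lowest of set 1.

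A list of 100 genes with exons tied to ESRP proteins or to the epithelial and mesenchymal states had 19 genes with a gained exon (19.0%) and 30 with an exon lower in set 2 (30%), against 1.25% and 1.88% of all genes. The list was drawn up from knowledge of such lines and with results of these data known, so its share is no independent evidence. The 19 genes held 24 gained exons, of which 19 were coding and 20 a multiple of 3, with a median set difference of 36.8 points. Members not yet described covered adhesion, transport and matrix. MLPH, melanophilin, which couples Rab27a to myosin Va, had 54.8%, 56.4% and 57.1% in set 2 at its 84 nt exon, against 6.97%, 3.09% and 4.99% in set 1. CD47, a membrane ligand of SIRP alpha, had 65.4%, 80.1% and 70.0% in set 2 at a 33 nt exon, against 35.3%, 41.5% and 46.6% in set 1. PLOD2, a collagen lysyl hydroxylase whose 63 nt exon distinguishes its long form, had 65.7%, 61.6% and 68.9% in set 2, against 39.7%, 36.0% and 34.7% in set 1. The MLPH exon was near absent in set 1. At the most counted event of the CD47 exon, with 6785 reads against 2059 at the event that met the rule, it was included at 5.06% in set 2 and 2.93% in set 1 (means, n = 3 each), a difference of 2.12 points.

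OSBPL6, a relative of OSBPL3, had 70.3%, 77.3% and 71.7% in set 2 at its 93 nt exon, against 59.3%, 25.2% and 61.9% in set 1, so that library 2 of set 1 makes much of its difference. LAS1L, a ribosome biogenesis factor, had 100%, 99.3% and 100% in set 2 at its 126 nt exon, against 79.2%, 74.0% and 74.1% in set 1. ATP2C1, the Golgi calcium and manganese pump, had 57.3%, 80.0% and 64.9% in set 2 at a 45 nt exon, against 42.3%, 50.99% and 42.4% in set 1. WNK1, a kinase of ion transport, had 37.4%, 27.5% and 36.9% in set 2 at its 459 nt exon, against 19.2%, 6.38% and 7.73% in set 1. MAP4K4, a kinase upstream of JNK, had 68.4%, 65.9% and 65.5% in set 2 at its 192 nt exon, against 47.1%, 40.2% and 47.2% in set 1, on at least 2245 reads. Of these 5 genes LAS1L reached full inclusion, and WNK1 remained a minority form in both sets.

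ALDOA and PTBP1 held the other deep exons. ALDOA, a glycolytic aldolase, had at least 3355 reads in each library at a 52 nt exon of its 5′ UTR. That exon was at 81.5%, 77.3% and 79.5% in set 2, against 53.2%, 43.6% and 54.3% in set 1. PTBP1, a splicing repressor, had at least 2400 reads at its 78 nt exon, with 85.9%, 88.4% and 78.3% in set 2, against 59.5%, 69.2% and 64.0% in set 1. That 20.01 point difference is the smallest of the 154. Among 68 splicing regulators with enough reads, 3 held a gained exon (4.41%), against 1.25% of all genes, and 3 held an exon lower in set 2 (4.41%), against 1.88%. The 3 with a gained exon were PTBP1, HNRNPA1 and TRA2A. The TRA2A event that met the rule had 174 reads, and at its most counted event, with 3931 reads, the difference was 3.31 points.

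The threshold of 20 points falls in a continuum. Just inside it were RTF2 at 20.1 points, 2 overlapping versions of an ABCD4 exon at 20.02 points with the same reads, and PTBP1. Just outside were BIN1 at 19.9, REPS1 at 19.9 and L3MBTL3 at 19.6 points. BIN1, an amphiphysin family protein, had 89.0%, 89.0% and 91.3% in set 2, against 78.7%, 57.3% and 73.4% in set 1, a pattern like that of the exons just inside. With each exon taken at 1 event, only 2 exons reached 20 points with sets that overlapped. Overlap at the other events of an exon is not covered by that count.

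The shape of these exons differed from that of other exons with enough reads, as described by counts without a test. Of the 154, 93 had a length that is a multiple of 3 (60.4%), against 46.9% of the other exons at 10 to 90% and 40.1% of all. Among the 103 fully coding exons the share was 75 (72.8%), against 57.0% and 42.1%. Exons lower in set 2 had similar shares, 59.4% of all and 68.5% of coding ones, so the feature is shared by both directions. In the 5′ UTR, where no frame is kept, 3 of 20 gained exons were a multiple of 3 (15%), against 32.7% and 31.6%. The share was similar in exons lower in set 2, at 4 of 27 (14.8%).

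Short exons were more frequent among the gained ones: 12 (7.79%) had 27 nt or fewer, against 2.11% of the other exons at 10 to 90% and 0.962% of all. Of the exons lower in set 2, 12 of 249 were as short (4.82%), and all 12 of those were a multiple of 3. All 12 gained microexons were a multiple of 3 as well, against 84 of 110 (76.4%) among the other exons at 10 to 90%. Besides the 10 shown above they were the PTK2 exon and a 3 nt exon of ABCA2, a lipid transporter, at 73.7%, 88.8% and 94.3% in set 2, against 62.4%, 68.7% and 59.3% in set 1. It had 35 reads in its lowest library. PTPRS, a receptor phosphatase, had 77.7%, 80.3% and 78.0% in set 2 at its 12 nt exon, against 39.3%, 74.2% and 51.8% in set 1. Its set 2 values were tight, and of set 1 library 2 alone came near them. Also for the sequences shown, ANXA6 had 63.8%, 61.1% and 63.3% in set 2, against 25.5%, 17.9% and 20.3% in set 1. GK had 38.6%, 38.2% and 29.1% in set 2, against 5.54%, 8.54% and 4.15% in set 1. BAZ2B had 80.4%, 84.0% and 82.9% in set 2, against 42.8%, 47.9% and 40.9% in set 1. ANXA6 and BAZ2B were tight in set 2, and the GK exon stayed a minority form.

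By annotation, 103 of the 152 exons matched to a gene were coding (67.8%), 18 partly coding, 20 in a 5′ UTR (13.2%), 4 in a 3′ UTR and 7 in genes or transcripts without a coding form. Among all exons with enough reads 79.8% were coding and 4.29% in a 5′ UTR. Among the other exons at 10 to 90% these shares were 56.5% and 16%. Exons that met the mirror rule had 66.9% and 11.2%, close to the gained exons. The median length was 110 nt, against 118 over all, 114 in the other exons at 10 to 90% and 98 under the mirror rule. Median GC content was 54.1%, against 49.4% over all, 50.35% in the other exons at 10 to 90% and 53.1% under the mirror rule.

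**Figure D2:**
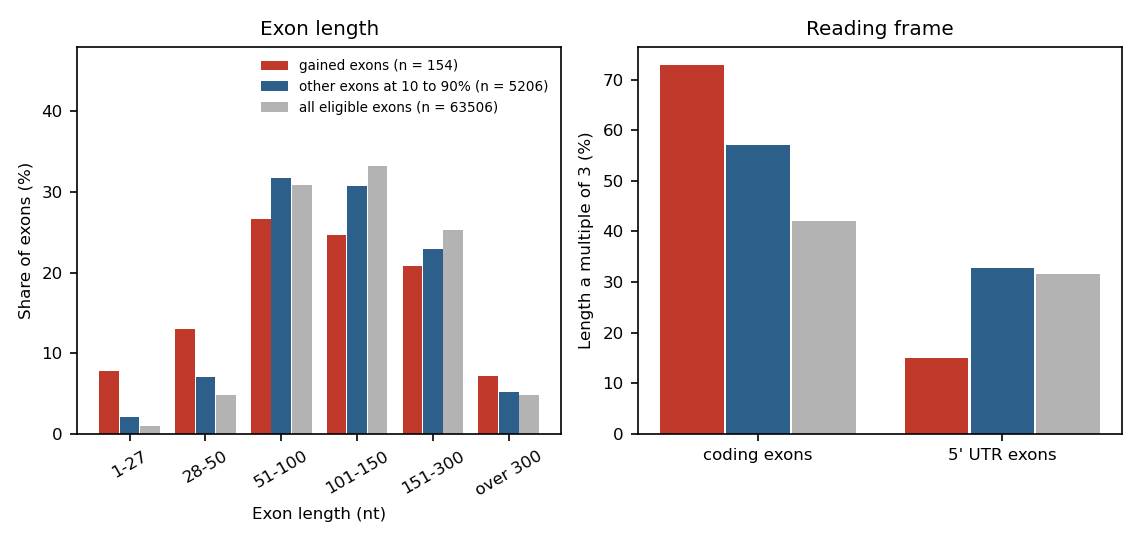
Left, share of exons in percent (vertical axis) by exon length in nt; right, share of coding and of 5′ UTR exons whose length is a multiple of 3. Red bars are the 154 gained exons, blue bars the 5206 other exons at a mean inclusion of 10 to 90%, grey bars all 63506 exons with enough reads; the red bars are the tallest at 27 nt or fewer (7.79%) and for coding exons at multiples of 3 (72.8%).

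An exon can be counted in several events that differ in the neighbouring exons, and 74 of the 154 had at least 2 events with enough reads. In 114 exons the event that met the rule was also the most counted one. In the other 40, the most counted event differed between the sets by under 5 points in 23, was at least 5 points higher in set 2 in 12 and at least 5 points lower in 5, with a median of 1.20 points. For these 40 the gain was measured along a path with fewer reads. The examples that follow were chosen after their values were seen. HNRNPA1, a splicing repressor, had 99.3%, 99.1% and 100% in set 2 at its 156 nt exon, against 60.9%, 45.0% and 52.8% in set 1. Its most counted event, with 65352 reads against 4785, gave 9.69%, 9.72% and 9.34% in set 2, against 8.80%, 8.48% and 8.95% in set 1. The exon was therefore rare in both sets when the paths with most reads are counted.

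CD44, the hyaluronan receptor, whose variable exons are a textbook case of epithelial and mesenchymal splicing, had differences of opposite sign at different events. Its 129 nt exon was gained at an event with 38 reads in its lowest library, at 53.1%, 65.2% and 37.1% in set 2, against 22.1%, 7.51% and 13.6% in set 1. At its most counted event the same exon was at 0.728%, 0.591% and 0.424% in set 2, against 32.3%, 14.1% and 20.5% in set 1. Its 126 nt exon behaved likewise, with a gain of 27.8 points at the event that met the rule and a loss of -38.8 points at the most counted event. Both thus met the rule and the mirror rule at different events, as did 2 overlapping versions of an exon of ADGRG1, an adhesion G protein-coupled receptor. DDR1 (56 nt), ADAM15 (214 nt) and WDR20 (1260 nt) were lower in set 2 at their most counted events by -16.9, -17.1 and -6.70 points. EXOC7 kept its direction at a smaller size, with 9.52 points at its most counted event.

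**Figure D3:**
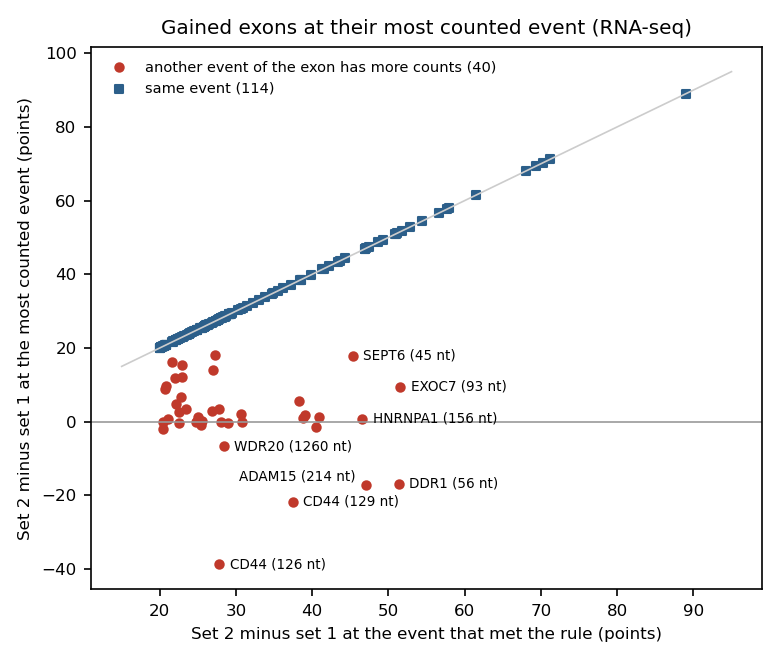
Set 2 minus set 1 inclusion in percentage points at the event that met the rule (horizontal axis) and at the exon's most counted event (vertical axis) for the 154 gained exons. Blue squares on the diagonal are the 114 exons whose rule event is the most counted one; red circles are the 40 others, most near 0 and 5 at -6.70 points or lower.

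Gains and losses also met in 1 gene. Of the 129 genes, 20 held at least 2 gained exons, and 13 held both a gained exon and an exon lower in set 2. No gained and lost exon shared both neighbouring splice sites. CD44 had 2 gained exons and 7 that met the mirror rule, with differences down to -84.4 points. RELCH, an endosomal protein, had 2 exons of 83 nt with opposite values: 1 at 60.7% in set 2 against 33.7% in set 1, and 1 at 22.3% against 51.7%. VPS29, EXOC7, KLC1 and TPRA1 were other such genes, and these were picked after their values were seen.

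RASL-seq, which the rule did not use, compared GS689 with PC3E on 25 of the 154 exons, all on the plus strand since the table holds that strand only. A change was called at an adjusted p under 0.05 in a limma-moderated quasi-binomial model over 1124 events with a difference of at least 5 points. Of the 25 exons, 16 had enough counts, 12 at the very event that met the rule and 4 at another event of the exon. At that other event the RNA-seq set difference was -1.99 points for PGAP2 and -16.9 for DDR1, so neither was gained there. For the rest of the 4, set 2 was higher at that event too. In 15 of the 16 inclusion was higher in GS689, with a median difference of 11.7 points, against 46.8% of all tested events and a median of -0.10. It was higher without overlap of the lines in 11, where 9.7% of all tested events were. The test called 6 higher in GS689, against 2.22% of all tested events, and 1 lower; of all tested events 66 (5.87%) changed. Whether an exon was used by more cells or more often within each cell cannot be told apart in these bulk libraries.

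TBC1D13 had the largest change, 70.7 points (adjusted p = 0.00213, limma-moderated). Its 41 nt exon was included at 95.5%, 91.7% and 87.5% in GS689 replicates 1 to 3, against 12.5%, 30% and 20% in PC3E. Counts were low, with a mean of 16.7 per library in GS689 and 7.67 in PC3E, but the lines lay far apart. MADD, a Rab3 exchange factor, rose by 49.7 points (adjusted p = 0.00297, limma-moderated). Its 60 nt exon was at 57.1%, 78.7% and 83.3% in GS689, against 25%, 23.3% and 21.7% in PC3E. The RNA-seq difference at that event was 20.4 points, with 37.4%, 45.5% and 40.1% in set 2, against 19.96%, 18.4% and 23.4% in set 1.

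Smaller changes had more counts. KLC1, a kinesin light chain, was included at 92.0% ± 1.21 in GS689 and 81.2% ± 1.01 in PC3E at its 51 nt exon (SD, n = 3 each; 10.8 points, adjusted p = 8.14e-05, limma-moderated). EPB41 had 12.6% ± 0.979 in GS689 and 2.93% ± 1.38 in PC3E (SD, n = 3 each; 9.67 points, adjusted p = 0.00707, limma-moderated). MAP4K4 had 92.4% ± 0.867 in GS689 and 82.9% ± 5.21 in PC3E (SD, n = 3 each; 9.54 points, adjusted p = 0.0172, limma-moderated). The call in EPB41 was lost without GS689 replicate 1 (adjusted p = 0.0585, limma-moderated), and that in MAP4K4 without GS689 replicate 1 or 3 (adjusted p = 0.0581 and 0.0567, limma-moderated). The 289 nt CTNND1 exon had 4.43% ± 0.526 in GS689 and 0.304% ± 0.178 in PC3E (SD, n = 3 each; adjusted p = 0.000317, limma-moderated), a clear separation that missed the minimum size at 4.13 points.

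The MADD and EPB41 exons are coding and were both higher in GS689 and in set 2; they are shown as examples of short coding exons that changed.
MADD chr11:47310519-47310578, plus strand: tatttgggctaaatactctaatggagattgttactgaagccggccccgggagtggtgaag
EPB41 chr1:29385323-29385364, plus strand: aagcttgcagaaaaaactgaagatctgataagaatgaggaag

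The 1 exon with lower inclusion in GS689 was the 56 nt exon of the DDR1 5′ UTR. It had 57.5%, 47.3% and 50.3% in GS689, against 69.5%, 69.1% and 65.9% in PC3E, a difference of -16.5 points (adjusted p = 0.00199, limma-moderated). The RASL-seq event differs from the one that met the rule in its neighbouring exon. At the RASL-seq event the RNA-seq values were 42.5%, 50.8% and 50.2% in set 2, against 64.3%, 63.2% and 66.7% in set 1, a difference of -16.9 points. The RASL-seq call was lost with limma on the log2 ratio of counts (adjusted p = 0.132), as was that of MAP4K4 (adjusted p = 0.129, limma). The DDR1 exon was thus higher in set 2 at the event that met the rule and lower at the RASL-seq event. Of its 5 events with enough reads, 1 was higher in set 2.

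The remaining tested exons did not pass. The 66 nt exon of NAV2, a microtubule-associated protein, was at 58.4% ± 8.66 in GS689 and 29.1% ± 17.2 in PC3E (SD, n = 3 each; adjusted p = 0.0856, limma-moderated). Without PC3E replicate 2 it was called, with 38.8 points (adjusted p = 0.00875, limma-moderated). Its 45 nt exon, the CTNND1 5′ UTR exon, MEIS1 (a homeobox factor), CLCN6 (a chloride and proton exchanger), PGAP2 (a factor in GPI anchor maturation) and PTBP1 had differences of 4.63 to 20.4 points. The PTBP1 exon was at 11.6% ± 3.82 in GS689 and 6.99% ± 0.722 in PC3E (SD, n = 3 each), while its RNA-seq values at the same event lay between 59.5% and 88.4%. In KLC1 the levels were apart in the other way, with RNA-seq values from 18.9% to 47.2% at the same event. Levels therefore cannot be read across the assays for these exons. The most counted RNA-seq event of the KLC1 exon had 4566 reads, against 2970 at the event that met the rule. At the most counted event mean inclusion was 98.2% in set 2 and 98.5% in set 1, a difference of -0.324 points. Of the 9 exons measured with too few counts or a single form, ALDOA had 0 inclusion counts in all 6 libraries, with at most 19 skipping counts in GS689 and 127 in PC3E.

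**Figure D4:**
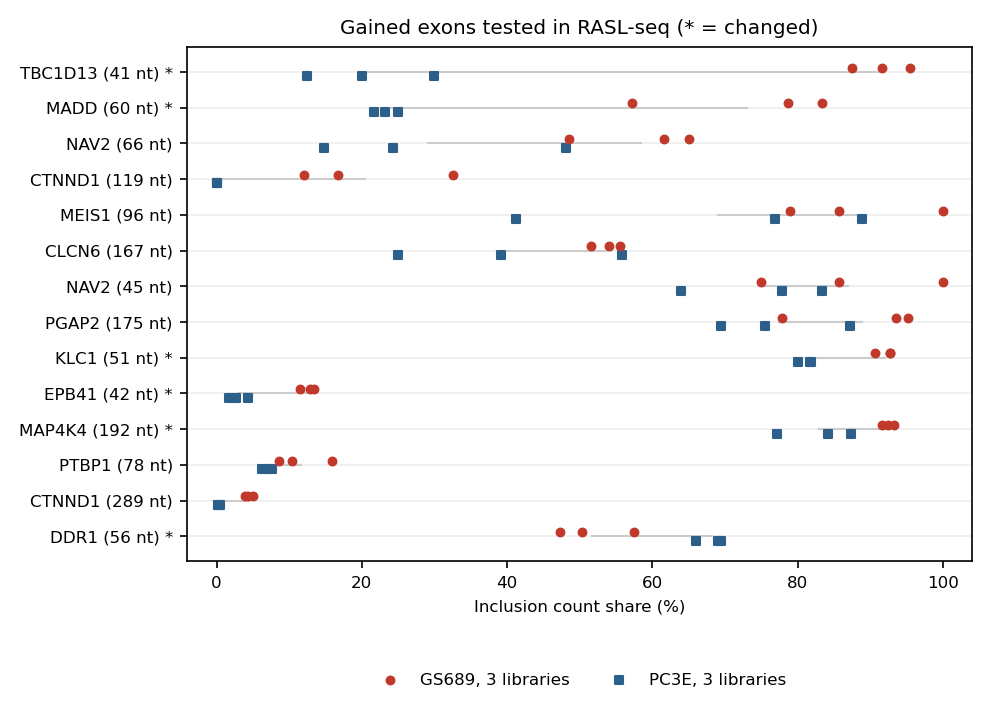
Inclusion count share in RASL-seq in percent (horizontal axis) of 14 of the 16 gained exons with enough counts, 1 row per exon. Red circles are the 3 GS689 libraries, blue squares the 3 PC3E libraries, grey lines join the means and an asterisk marks a change; DDR1 at the bottom is the exon with lower inclusion in GS689.

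Total counts of a gene's RASL-seq junctions, both forms summed, asked whether the genes of gained exons also differed in amount. Totals of the measured junctions are not gene levels, since the probes cover a few junctions of each gene. Of 36 such genes tested by limma-voom, 14 passed an adjusted p of 0.05, with 8 higher and 6 lower in GS689, against 388 of 1302 genes in all (29.8%; 16.3% higher and 13.5% lower). The median log2 change was 0.17 for the 36 and 0.00 for all.

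OSBPL6 had 41.5, 39.6 and 45.1 CPM (counts scaled to a fixed library total) in GS689, against 2.35, 1.29 and 4.53 in PC3E, a log2 change of 3.79 ± 0.45 (SE; adjusted p = 0.00012, limma). ADGRG1 had 14.5, 18.0 and 20.9 CPM in GS689, against 1.18, 1.29 and 1.13 in PC3E, a log2 change of 3.32 ± 0.45 (SE; adjusted p = 0.000317, limma). Each PC3E library held 1 count, so the fitted change is no bound. KLC1 rose by 2.09 ± 0.13 (SE; adjusted p = 2.07e-06, limma), with 6960 ± 1015 CPM in GS689 and 1624 ± 43.4 in PC3E (SD, n = 3 each). GPR137, MPZL1, CAP2 and RELCH rose by 1.72, 1.51, 1.30 and 1.02; the call of GPR137 was lost from skipping counts alone (adjusted p = 0.0512, limma). These 7 genes had more RASL-seq product in GS689.

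CD44 fell most, with 1.04, 1.20 and 3.22 CPM in GS689, against 102, 135 and 98.4 in PC3E, a log2 change of -5.63 ± 0.47 (SE; adjusted p = 1.24e-05, limma). Its GS689 libraries held 1 or 2 counts each, so the fitted size is no bound. ALDOA changed by -3.17 and ADAM15, a membrane metalloprotease, by -1.87. In these 3 genes the junctions measured gave fewer counts in GS689, and the part of this in the exon differences was not tested.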

How the data were processed

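Per the labels, cells went into Trizol and a TruSeq Stranded Total RNA kit was used, although the molecule is given as polyA RNA; how RASL-seq was done is not stated there. The submitters' processing notes name STAR 2.5.2a, kallisto 0.43.0 and hg19 without a role.

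In the RNA-seq table that the authors deposited, each cell joins 3 libraries of a set by commas, with whole-number counts for inclusion and for skipping (sets 1 and 2, per the file headers). The deposited effective lengths of both forms (unit recorded as score) were used to correct inclusion for length. Its library totals ran from 93842790 to 120853566, but a read counts in several events, so they are not depth. The RASL-seq table holds a pair of whole-number counts per library, and 0 columns of per-sample values were left unused. The first count was taken as the included form: in 51 of 51 pairs of events it was identical to the skipping count of an event with the same junction.

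Events were named by structure (chromosome, strand, exon length and both flanking distances) against GENCODE 29, with 110937 of 114816 RNA-seq events (96.6%) and 1969 of 2023 RASL-seq events (97.3%) matched to 1 gene. As a check, a shifted intron length matched 80. Intron sequence was not used here. Some named items are not reported here.

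RASL-seq events needed a mean of 10 counts per library, at least 1 in each and 10 of the rarer form. They were tested by a quasi-binomial model with dispersions moderated in limma 3.58.1 (R 4.3.3), Benjamini-Hochberg adjusted over all events. Gene totals were tested by limma-voom. Both were tested on simulated data. Named were the 12 largest set differences, the 6 deepest exons, up to 15 exons tested in RASL-seq, list members, the 6 shortest, exons on each side of the threshold and up to 10 gene totals. The members and lists were chosen with earlier results of these data known. Alternatives covered depth, length correction, test, filters, scaling, pairing and each library left out.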

Additional observations from a re-analysis of the deposited data

How the results depend on the processing

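The number of gained exons was 102 with a minimum of 50 reads, against 154; with a minimum of 10, without length correction or over the most counted event alone it was 209, 135 and 114. Leaving out 1 library gave 170 to 228. In RASL-seq, 66 events changed in all, but 25 with limma on the log2 ratio of counts (pseudocount 0.5) and 25 with a minimum of 20 points; of the gained exons 6 were called higher, and 3 at 20 points. One library left out gave 46 to 86 events and 4 to 7 gained exons. The cause was not tested. With limma on the log2 ratio at pseudocount 0.5, the calls of MAP4K4 (adjusted p = 0.129) and DDR1 (0.132) were lost, and at pseudocount 5 those of MAP4K4 (0.0527) and DDR1 (0.0597).

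Gene totals that changed were 388, and 241 from skipping counts alone; 1 library left out gave 272 to 470, and 12 to 18 of the 36 genes of gained exons against 14. From skipping counts alone, the total of DDR1 turned to 0.22 (adjusted p = 0.423, limma) and that of MAP4K4 to -0.63 (adjusted p = 0.0104, limma), which leave out the inclusion counts by construction; GPR137 kept its direction at 2.03 (adjusted p = 0.0512, limma).

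Replicate numbers did not pair the samples: deviations of same-numbered RASL-seq libraries correlated at 0.09, 0.04 and 0.06. With the replicate block, 88 events, 7 gained exons, 468 totals and 18 totals of the genes of gained exons were called, NAV2 (66 nt) being the added exon (adjusted p = 0.0391, limma-moderated). The RNA-seq sets carry no replicate numbers that match the labels.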

Other observations

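Genes not yet named include some of the gained exons with the least scatter or the most unusual place. They were chosen after their values were seen, and no explanation is offered. SULF2, an extracellular sulfatase, had 98.5%, 99.1% and 98.9% in set 2 at a 54 nt coding exon, against 40.6%, 59.0% and 43.7% in set 1, so it was constitutive in set 2. MAP2K7, a kinase that activates JNK, had 84.8%, 92.5% and 87.9% in set 2 at a 48 nt exon, against 44.3%, 42.3% and 48.6% in set 1. FBRSL1 had 96.4%, 98.7% and 96.0% in set 2 at a 36 nt exon, against 64.3%, 62.5% and 60.0% in set 1. MYOF, a membrane repair protein, had 78.7%, 74.3% and 79.0% in set 2 at a 39 nt exon, with a set 1 mean lower by 26.9 points, on at least 1037 reads.

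CSF1, the macrophage growth factor, held a 546 nt coding exon, 1 of the longest gained exons, at 97.8%, 90.2% and 94.3% in set 2, against 58.3%, 29.2% and 48.7% in set 1. AKT1, a survival kinase, had 2 overlapping exons in its 5′ UTR with set differences of 30.2 and 29.3 points. At those exons 1 library of set 2 stood below the other 2 (49.3%, against 68.1% and 73.2%, in the 84 nt version). Exons of 84 and 178 nt there share reads. Of the 154 exons, 2 matched no gene and are left unnamed: 1 of 89 nt on chromosome 15 and 1 of 51 nt on chromosome 5, at 28.5 and 27.6 points.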
